A study of Mus musculus with 16 samples.

Results

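The livers of mice fed a high-fat diet (HFD) with fenretinide for 20 weeks were compared with those of mice fed the same diet with the drug for 7 days. All genes in the raw counts of the 4 livers at each time were used, which makes 8 of the 16 libraries of the series. The mice were male wild-type C57BL/6J, the HFD held 45% fat, and both of these groups (FEN-HFD) carried 0.04% fenretinide in the food. The other 8 libraries come from mice on the HFD without the drug, 4 after 20 weeks and 4 after 7 days, and are used to show where the change over time differed. The 20-week mice were 21, 22, 24 and 29 and the 7-day mice were 61, 62, 65 and 66. They are separate animals, and the labels give no ages, so that duration of feeding, age and cohort cannot be told apart. The question of the comparison was which genes still differ between a short and a long HFD when the drug is in the food throughout.

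Fenretinide is a synthetic derivative of retinoic acid, which acts through nuclear receptors that bind DNA at retinoic acid response elements. Liver cells that receive more fatty acid than they burn store it as triglyceride in droplets coated by perilipin and CIDE proteins, and fatty acids in turn switch on genes through the receptor PPARα. Whole liver is mostly hepatocytes, with Kupffer cells, endothelium, stellate cells and leukocytes between them, and in whole tissue fewer cells of a type and less RNA per cell cannot be told apart.

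The 8 FEN-HFD libraries held between 19218230 and 32546829 counts assigned to genes. The library of mouse 29 stood apart. Rn45s, the ribosomal RNA precursor, took 53.1% of its counts and Lars2 took 4.36%, against at most 1.46% and 0.0499% in the other 7, which left 8357336 counts for all other genes in mouse 29 and at least 19020438 in the others. Pearson's r of its log2 levels with the other 20-week livers was 0.9649 to 0.9754 across genes, against at least 0.992 among those 3. The summed level of the 16 hepatocyte markers was 99800 to 118000 CPM (counts scaled to a common library size) in all 8, none of the markers being at 0, so the libraries carried the liver label. The counts of the comparison and of the lists are therefore given with and without mouse 29 where the 2 differ. CPM use the library total times its TMM factor, and a log2 fold change is that of 20 weeks over 7 days with its standard error (SE).

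Under the drug 153 genes differed between the times. Of 12949 genes tested, 1.18% differed, 110 (0.849%) being higher and 43 (0.332%) lower at 20 weeks by edgeR's quasi-likelihood test with a Benjamini-Hochberg adjusted p under 0.05. At an unadjusted p under 0.05, 781 were higher and 470 lower. The ranges of the 2 groups did not overlap for any of the 153, nor for 851 genes (6.57%) in all. Without mouse 29, 269 of 13104 genes (2.05%) were higher and 217 (1.66%) lower, 3.71% in all, and 148 of the 153 kept their call, the exceptions being Cyp2c40, Acot3, Cyp2c69, Hamp2 and Fitm1. Called with each of the 8 mice left out in turn were 41 of the genes that were higher and 9 of those that were lower.

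**Figure D1:**
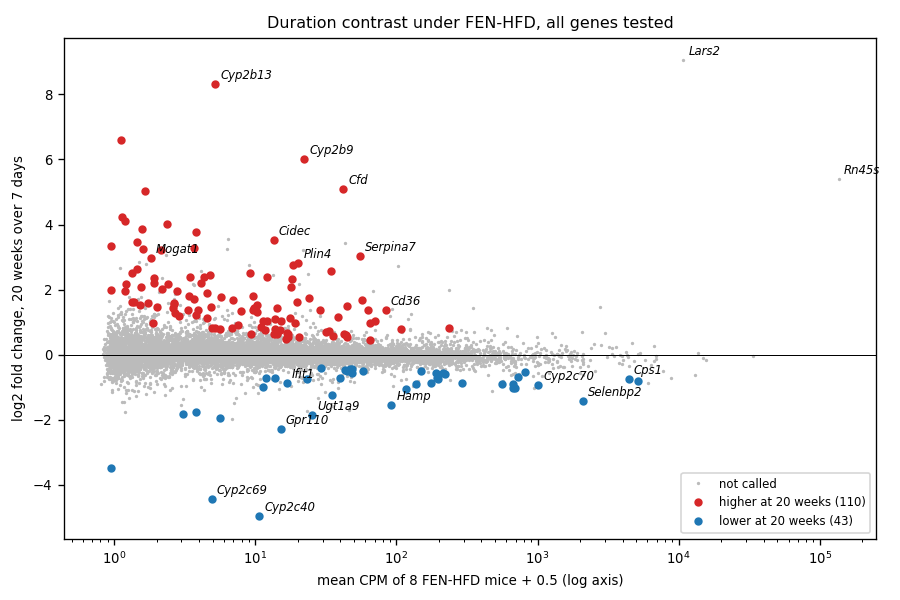
Log2 fold change of 20 weeks over 7 days under FEN-HFD (vertical axis) against the mean CPM of the 8 mice plus 0.5 (log axis) for each of the 12949 genes tested. Red points are the 110 genes that were higher and blue points the 43 that were lower. Of the labelled called genes, Cyp2b13, Cyp2b9, Cfd and Cidec lie highest and Cyp2c40 and Cyp2c69 lowest. Rn45s and Lars2, at their highest in mouse 29, also lie high (log2 5.41 and 9.05) but were not called.

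Genes of triglyceride storage were the group with the most called members among the lipid lists. Of 27 members tested of the list for triglyceride synthesis and lipid droplets, 7 were higher at 20 weeks and none lower, with a list median of 0.21 on the log2 scale against 0.010 over all genes tested. Without mouse 29 it was 8 of 28, with a median of 0.32 against -0.0040. Cidec encodes a protein that fuses droplets into larger ones. Its level was 18.5, 27.4, 28.8 and 20.8 CPM in mice 21, 22, 24 and 29, and 1.19, 1.78, 2.02 and 3.36 CPM in mice 61, 62, 65 and 66. Every 20-week mouse lay far above every 7-day mouse, with a log2 fold change of 3.54 ± 0.28 (SE, n = 4 and 4; edgeR adjusted p = 0.000226), or 11.6-fold. Plin4, a coat protein of droplets, had 36.5, 27.3, 29.8 and 44.2 CPM at 20 weeks and 3.23, 4.18, 4.39 and 7.71 CPM at 7 days, a 7.09-fold difference (log2 2.83 ± 0.26 SE; edgeR adjusted p = 0.000595). Mogat1, which makes diacylglycerol from monoacylglycerol, had 2.81, 2.58, 2.60 and 1.30 CPM against 0.138, 0.254, 0.386 and 0.430 CPM (log2 2.98 ± 0.36 SE; edgeR adjusted p = 0.00253). Mouse 29 was the lowest of the 20-week mice for Mogat1 and still above all 7-day mice. Agpat9, the symbol in the file for a glycerol-3-phosphate acyltransferase, had 12.4 to 15.7 CPM at 20 weeks and 3.36 to 6.65 CPM at 7 days (log2 1.53 ± 0.21 SE; edgeR adjusted p = 0.00561). These 4 genes kept their calls with each mouse left out.

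The other 3 called members of that list had smaller margins. Fitm1, a protein of the endoplasmic reticulum that partitions fat into droplets, had 49.3 to 72.3 CPM at 20 weeks and 11.4 to 32.6 CPM at 7 days (log2 1.51 ± 0.29 SE; edgeR adjusted p = 0.0481). Its call was lost without mouse 21, 22, 24, 29, 62 or 65, with edgeR adjusted p of up to 0.147. Fabp4, a fatty acid binding protein, had 11.3 to 21.7 CPM against 5.95 to 8.52 CPM (log2 1.03 ± 0.21 SE; edgeR adjusted p = 0.0451), and was called only with all 8 mice or without mouse 29 (edgeR adjusted p of up to 0.162 in the other 7 fits). Pnpla3, a lipase of droplets that also frees retinol from its esters, had 1.588 to 1.996 CPM against 0.822 to 1.02 CPM (log2 0.98 ± 0.20 SE; edgeR adjusted p = 0.0489), and likewise was called only with all 8 mice or without mouse 29 (edgeR adjusted p of up to 0.188). In 1 fit of all 16 libraries, which shares the spread of the HFD livers, these 3 were not called (edgeR adjusted p = 0.0937, 0.0532 and 0.466).

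**Figure D2:**
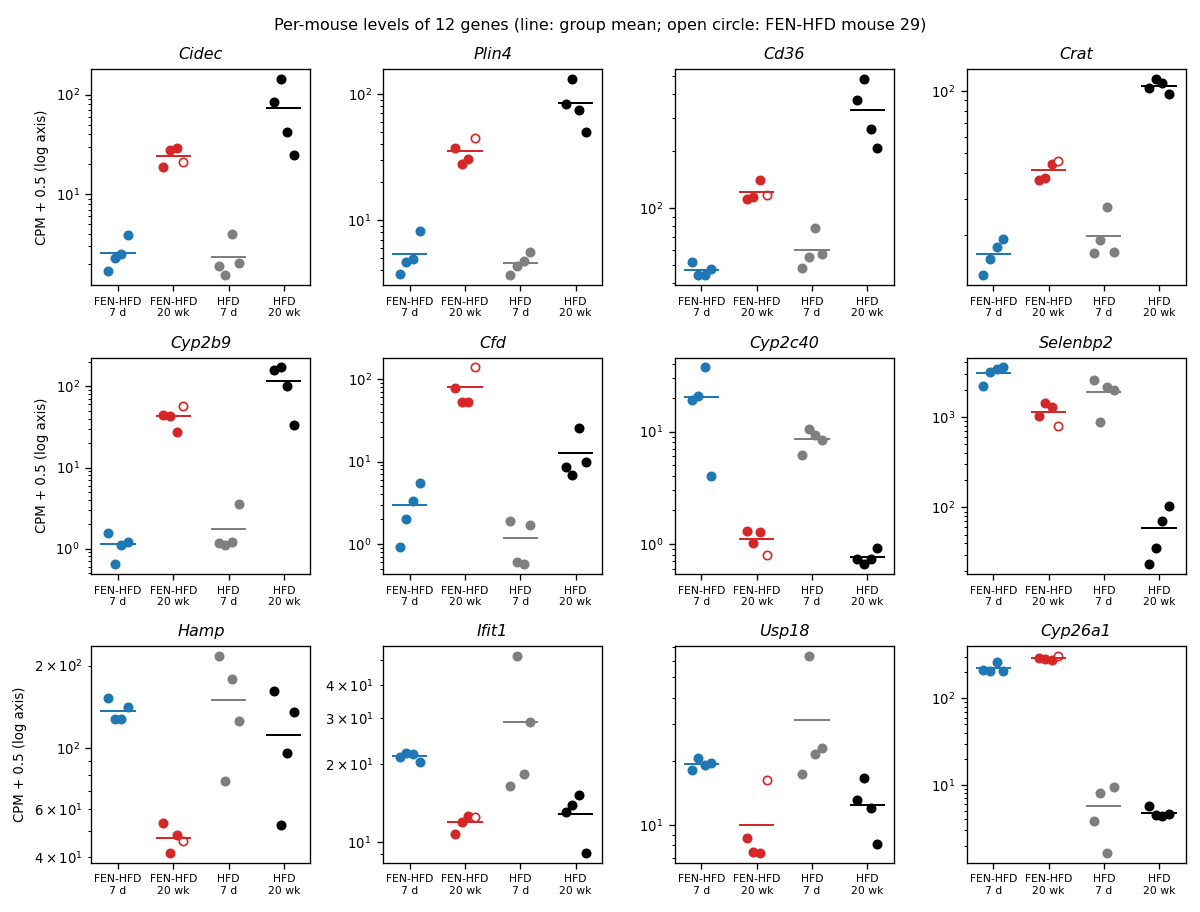
CPM plus 0.5 (log axis) of 12 genes in each mouse of the 4 groups, with the group mean as a line and FEN-HFD mouse 29 as an open circle. CPM were scaled within each diet. Every 20-week FEN-HFD mouse lies above every 7-day FEN-HFD mouse for Cidec, Plin4, Cd36, Crat, Cyp2b9, Cfd and Cyp26a1 and below for Cyp2c40, Selenbp2, Hamp, Ifit1 and Usp18. Cyp26a1 and Usp18 were not called with all 8 mice.

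Uptake and oxidation genes moved in part. Of the 13 fatty acid uptake genes 2 were higher, Cd36 and Fabp4, and none lower (list median 0.050; 1 lower without mouse 29). Cd36, the membrane carrier that brings fatty acids into the cell, had 111, 114, 139 and 117 CPM at 20 weeks and 51.2, 43.5, 43.8 and 47.2 CPM at 7 days. The log2 fold change was 1.37 ± 0.10 (SE; edgeR adjusted p = 0.000176), the same within 1.30 to 1.42 whichever mouse was left out. Of the 35 PPARα targets and oxidation genes tested, 4 were higher and 1 lower (list median 0.097; 6 higher and 1 lower without mouse 29). Crat encodes carnitine acetyltransferase and had 36.4, 37.4, 43.9 and 45.4 CPM against 12.3, 14.9, 17.1 and 18.8 CPM (log2 1.37 ± 0.14 SE; edgeR adjusted p = 0.00078). Crat overlaps Dolpp1 on chromosome 2, and reads in the overlap cannot be assigned to one gene. Vnn1, a pantetheinase and a classical PPARα target, had 68.2 to 109 CPM against 37.2 to 58.3 CPM (log2 1.03 ± 0.17 SE; edgeR adjusted p = 0.0181). The acyl-CoA thioesterases Acot2 and Acot3, which are close copies and may share reads, were 2.18-fold and 6.74-fold higher (edgeR adjusted p = 0.0481 and 0.0204). Vnn3, a neighbour of Vnn1, was lower, with 42.3 to 50.9 CPM against 61.1 to 72.8 CPM (log2 -0.51 ± 0.10 SE; edgeR adjusted p = 0.0364). The calls for Cd36 and Crat held with each mouse left out. That for Vnn1 was lost without mouse 21, 24, 61, 65 or 66 (edgeR adjusted p of up to 0.0745), that for Acot3 without mouse 21, 24, 29, 61, 65 or 66 (up to 0.0606), that for Acot2 without any mouse but 29 or 66 (up to 0.158) and in the fit of all 16 libraries (0.0966), and that for Vnn3 without any mouse but 29 (up to 0.155).

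Fatty acid and cholesterol synthesis genes were not called. None of the 18 de novo lipogenesis genes passed by edgeR. All 18 had positive log2 fold changes (median 0.33), beside 6790 of all 12949 genes. Before adjustment 7 had an edgeR p below 0.05 and a rise, beside 781 in the whole set. DESeq2 called 4 higher and limma-voom 4, and edgeR called 2 higher without mouse 29. Scd1, the stearoyl-CoA desaturase, had 2781, 5579, 5153 and 2823 CPM at 20 weeks and 1891, 735, 1084 and 2183 CPM at 7 days (log2 1.47 ± 0.37 SE; edgeR adjusted p = 0.119), and the groups did not overlap. Of 24 cholesterol synthesis genes none was called by edgeR with all mice (median 0.21). At an unadjusted p below 0.05, 6 were higher, beside 781 of all 12949 genes, and DESeq2 and limma-voom called 2 each. Without mouse 29 edgeR called 1, Hmgcs1 (log2 0.71, edgeR adjusted p = 0.0362). Elovl5, an elongase of polyunsaturated fatty acids, had 182 to 326 CPM against 175 to 208 CPM (edgeR adjusted p = 0.477), and these ranges overlapped. No member of the lists for insulin signalling and glucose metabolism (21 tested), bile acids (23 tested) or the circadian clock (19 tested) was called by edgeR with all mice. At an unadjusted p under 0.05 they had 2, 2 and 2 members higher and 3, 5 and 2 lower. Over all 12949 genes, 781 were higher and 470 lower at that level. DESeq2 called 1 bile acid gene higher and 3 lower and none of the other lists, and limma-voom called 1, 3 and 2 members. Without mouse 29 edgeR called 1 bile acid gene lower, Cyp7b1, an oxysterol hydroxylase (log2 -0.90; edgeR adjusted p = 0.00327), and 1 clock gene lower, Ciart (Gm129 in the file), a repressor of the clock (log2 -0.52; edgeR adjusted p = 0.0221).

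Cyp26a1, the retinoic acid hydroxylase and a classical target of retinoids, was high at both times. It had 294, 288, 275 and 306 CPM at 20 weeks and 212, 208, 261 and 206 CPM at 7 days, while no HFD liver exceeded 9.03 CPM. The 20-week mice were all above the 7-day mice but the log2 fold change of 0.39 ± 0.10 (SE) did not pass the test (edgeR adjusted p = 0.138; 0.0905 without mouse 29). Of the 8 retinoic acid inducible genes tested edgeR called none, with 2 higher at an unadjusted p under 0.05, beside 781 of all 12949 genes. DESeq2 and limma-voom each called 1 higher, Cyp26a1 (adjusted p = 0.0103 and 0.0311). Since Cyp26a1 is a classical target of retinoids, its promoter is shown. The window is the 250 bases upstream of the start used for it, at chr19:37697558-37697807 on the plus strand of GRCm38.p6 (RefSeq). The capitals mark a pair of AGTTCA half-sites 5 bases apart (AGTTCA, any 5 bases, AGTTCA, searched on both strands), the form of a retinoic acid response element, found on the minus strand 16 to 32 bases upstream of that start. The span of the gene begins at base 37697738, so this pair and the end of the window lie within it. This form is present in 7 of 27025 genes with a promoter in the table (0.0259%) and in 1 of 9 retinoic acid inducible genes, Cyp26a1 itself. The form with AGGTCA in place of AGTTCA is present in 0.0111% of genes and in none of the 9. As the half-site letters searched are those of the Cyp26a1 pair, its rarity elsewhere does not bear on the change over time.
Cyp26a1: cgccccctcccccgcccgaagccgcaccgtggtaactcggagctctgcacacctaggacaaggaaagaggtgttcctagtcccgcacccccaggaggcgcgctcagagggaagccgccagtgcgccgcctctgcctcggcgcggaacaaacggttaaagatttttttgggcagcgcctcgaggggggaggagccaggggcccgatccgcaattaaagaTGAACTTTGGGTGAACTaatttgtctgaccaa

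In the enzymes and receptors around retinoids, 1 of 18 retinol and retinal dehydrogenases and 1 of 9 retinoid receptors and corepressors was higher and none lower (2 and 1 without mouse 29). Aldh1a7, an aldehyde dehydrogenase close to the retinal dehydrogenase Aldh1a1, had 225 to 386 CPM against 159 to 195 CPM (log2 0.81 ± 0.16 SE; edgeR adjusted p = 0.0391). Trim24, a corepressor of retinoic acid receptors, had 48.5 to 58.7 CPM against 32.3 to 40.7 CPM (log2 0.55 ± 0.10 SE; edgeR adjusted p = 0.029). Both were lost as calls without most single mice (edgeR adjusted p of up to 0.142 and 0.116), Aldh1a7 without any but mouse 29 and Trim24 without mouse 21, 22, 24, 61, 62 or 66. Of the 9 members tested of the Hsd17b family edgeR called none, with 2 lower at an unadjusted p under 0.05, beside 470 of all 12949 genes. DESeq2 and limma-voom each called 1 lower, Hsd17b2. Hsd17b13, a lipid droplet protein with reported activity towards retinol in vitro, had 184 to 211 CPM at 20 weeks and 186 to 249 CPM at 7 days (edgeR adjusted p = 0.812). Hsd17b2 had 128 to 170 CPM against 189 to 256 CPM (log2 -0.59; edgeR adjusted p = 0.0518) and was lower when mouse 29 was left out (edgeR adjusted p = 0.0281).

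**Figure D3:**
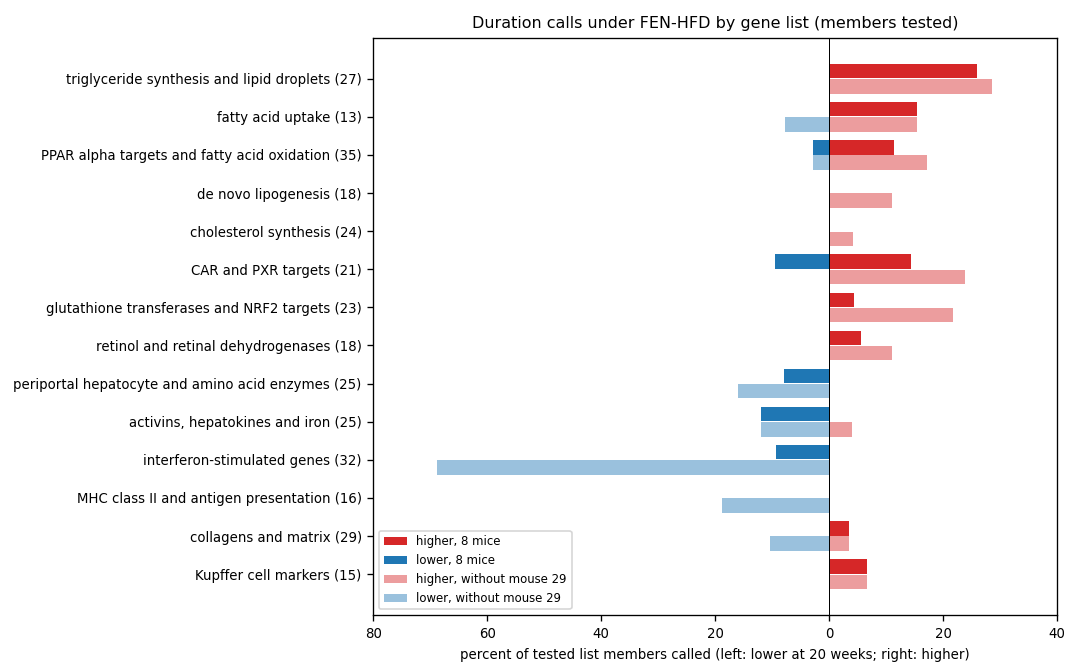
Percent of the tested members of 14 gene lists that were called higher (right) or lower (left) at 20 weeks under FEN-HFD, with all 8 mice (dark) and without mouse 29 (pale). The triglyceride and lipid droplet list reaches 7 of 27 higher, and the interferon-stimulated list goes from 3 to 22 of 32 lower when mouse 29 is left out.

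Cytochrome P450 genes differed in both directions, some of them widely. Of 21 targets of the xenobiotic receptors CAR and PXR, 3 were higher and 2 lower with all mice (median 0.21), and 5 were higher and none lower without mouse 29. Cyp2b9 had 44.5, 42.8, 27.1 and 56.5 CPM at 20 weeks and 1.07, 0.145, 0.594 and 0.704 CPM at 7 days (log2 6.03 ± 0.39 SE; edgeR adjusted p = 0.000176). Its close copy Cyp2b13 had 10.3, 10.98, 3.56 and 12.7 CPM at 20 weeks and 2, 0, 1 and 0 counts in the 7-day mice (edgeR adjusted p = 0.000176). The 2 genes lie next to each other on chromosome 7 and may share reads. Cyp2c40 went the other way, with 0.791, 0.523, 0.770 and 0.299 CPM at 20 weeks and 18.7, 20.0, 36.7 and 3.48 CPM at 7 days (log2 -4.95 ± 0.73 SE; edgeR adjusted p = 0.0186). Mouse 66 had the least at 7 days and was still above all 20-week mice. Cyp2c69, a near neighbour in sequence, had 0.187 to 0.699 CPM against 1.604 to 17.7 CPM (edgeR adjusted p = 0.0323). These 2 calls rest on few counts at 20 weeks. They were lost without mouse 21, 22, 24 or 29 and, for Cyp2c69, also without 61 or 62 (edgeR adjusted p of up to 0.0782 and 0.131), and by limma-voom with quality weights (adjusted p = 0.225 and 0.219). Cyp2b9 and Cyp2b13 kept their calls with each mouse left out.

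Other drug-metabolising genes differed by less. Cyp2c38 was 2.17-fold higher (16.7 to 27.1 against 7.85 to 13.2 CPM; edgeR adjusted p = 0.0194) and overlaps Cyp2c39. Cyp2c68 was lower at 66.5 to 91.0 CPM against 126 to 181 CPM (log2 -1.05 ± 0.13 SE; edgeR adjusted p = 0.00358). Cyp2c70, the enzyme that makes muricholic acids in mice, was lower at 536 to 832 against 1250 to 1427 CPM (log2 -0.92 ± 0.14 SE; edgeR adjusted p = 0.0108). Cyp1a2, a pericentral enzyme that oxidises caffeine, had 200, 238, 225 and 164 CPM against 329, 397, 360 and 412 CPM (log2 -0.86 ± 0.13 SE; edgeR adjusted p = 0.0119). All 4 Cyp1a2 values at 20 weeks lay below the lowest at 7 days. Cyp1a2 was the only one called of 17 pericentral markers tested, of which 12 had positive and 5 negative log2 fold changes (median 0.19). Without mouse 29, 2 of these markers were higher and 1 lower (median 0.26). Ugt1a9, a glucuronosyltransferase that shares exons with the rest of the Ugt1a cluster, had 5.39 to 15.8 CPM against 30.7 to 45.0 CPM (log2 -1.84 ± 0.27 SE; edgeR adjusted p = 0.0117). Gstt3, a glutathione transferase, was 2.58-fold higher (edgeR adjusted p = 0.029), the only one called of 23 glutathione transferases and NRF2 targets (median 0.35; 5 higher without mouse 29). Without mouse 21 the calls for Cyp2c38, Cyp2c70, Cyp1a2, Ugt1a9 and Gstt3 were lost (edgeR adjusted p of 0.053 to 0.0766). Those for Cyp2c38 and Gstt3 were also lost without mouse 22, 24 or 65 and, for Gstt3, 61 or 62 (up to 0.0851 and 0.109), while Cyp2c68 was called in every such fit. In the fit of all 16 libraries Cyp2c38 and Cyp1a2 were not called (edgeR adjusted p = 0.113 and 0.368).

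Among secreted and other hepatocyte products, the iron hormone hepcidin was lower. Hamp had 52.8, 40.97, 47.6 and 45.2 CPM at 20 weeks and 152, 127, 127 and 141 CPM at 7 days (log2 -1.55 ± 0.11 SE; edgeR adjusted p = 0.000176), a 2.92-fold difference in which mouse 29 did not stand out. Its copy Hamp2, which may share reads, had 1.16 to 1.79 CPM against 2.76 to 7.66 CPM (edgeR adjusted p = 0.0446; up to 0.159 without 1 mouse, the call being lost without 21, 22, 24, 29, 61 or 66). Selenbp2, a selenium-binding protein with a near-identical copy, had 1037, 1425, 1282 and 791 CPM against 2200, 3152, 3381 and 3527 CPM (log2 -1.44 ± 0.21 SE; edgeR adjusted p = 0.00892; 0.0526 without mouse 21). C8b, a chain of complement component C8, had 396, 346, 427 and 398 CPM against 700, 784, 788 and 655 CPM (log2 -0.90 ± 0.11 SE; edgeR adjusted p = 0.00253). Gpr110, an adhesion receptor, had 4.14 to 6.19 CPM against 18.1 to 29.1 CPM (log2 -2.28 ± 0.18 SE; edgeR adjusted p = 0.000181). Serpina7, thyroxine-binding globulin, went up, with 124, 85.0, 98.5 and 80.2 CPM against 15.8, 11.99, 8.31 and 11.4 CPM (log2 3.03 ± 0.21 SE; edgeR adjusted p = 0.000176). Hamp, C8b, Gpr110 and Serpina7 were called whichever mouse was left out, and in the fit of all 16 libraries C8b, Selenbp2 and Hamp2 were not (edgeR adjusted p = 0.213, 0.153 and 0.162).

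Of 25 periportal and amino acid enzymes 2 were lower and none higher (4 lower without mouse 29). Negative log2 fold changes were found in 23, beside 6159 of all 12949 genes (median -0.29 against 0.010 over all genes). Cps1, the first enzyme of the urea cycle, had 3067, 3505, 3880 and 2792 CPM against 5899, 5067, 5110 and 6073 CPM (log2 -0.74 ± 0.14 SE; edgeR adjusted p = 0.0346). Cyp2f2, a periportal P450, had 607 to 774 CPM against 916 to 1007 CPM (edgeR adjusted p = 0.0496). Of 20 apolipoprotein and lipoprotein genes none was higher (1 without mouse 29) and 2 were lower, hepatic lipase Lipc at 126 to 166 CPM against 210 to 236 CPM (edgeR adjusted p = 0.037) and Apom at 160 to 207 CPM against 234 to 272 CPM (edgeR adjusted p = 0.0477). These 4 genes kept non-overlapping ranges but lost their calls in most fits with 1 mouse left out (edgeR adjusted p of up to 0.155, 0.2, 0.13 and 0.187), Cps1 without any but mouse 24 or 29, Cyp2f2 without any but 22 or 29, and Lipc and Apom without any but 29. Cps1, Lipc and Apom were also not called in the fit of all 16 libraries (edgeR adjusted p = 0.0747, 0.0853 and 0.0838).

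Of the lists, that of the interferon-stimulated genes gained the most calls when mouse 29 was left out. With all mice 3 of 32 were lower and none higher, with a median of -0.38. Without mouse 29, 22 of 32 were lower and the median was -0.88. The median level of the 32 genes relative to their 7-day means was -0.74, -0.82 and -0.85 on the log2 scale in mice 21, 22 and 24, between -0.051 and 0.001 in the 7-day mice, and 0.13 in mouse 29. Ifit1, an RNA-binding antiviral protein, was lower in all 4, with 10.3, 11.4, 12.1 and 11.98 CPM against 20.8, 21.5, 21.3 and 19.9 CPM (log2 -0.87 ± 0.09 SE; edgeR adjusted p = 0.00129), and was called in every fit that left out a mouse. Rsad2 (viperin) had 9.42, 10.2, 10.9 and 9.48 CPM against 17.4, 18.3, 16.4 and 14.1 CPM (log2 -0.73 ± 0.11 SE; edgeR adjusted p = 0.0119; 0.07 without mouse 21). Ifit2 had 5.04 to 10.4 CPM against 13.9 to 14.5 CPM (edgeR adjusted p = 0.029; called otherwise only without mouse 29, and up to 0.131 without another mouse). Usp18, which restrains interferon signalling, had 8.16, 6.98, 6.88 and 15.8 CPM against 17.6, 20.3, 18.7 and 19.1 CPM. Mouse 29 lay close to the 7-day mice and the other 3 far below, so that Usp18 was not called with all mice (edgeR adjusted p = 0.0721) and was lower without mouse 29 (log2 -1.37; edgeR adjusted p = 4.18e-05). In the fit of all 16 libraries Ifit1, Rsad2 and Ifit2 were not called (edgeR adjusted p = 0.239, 0.184 and 0.284).

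The promoters of 2 interferon genes called with all mice, Ifit1 and Rsad2, are shown to mark what they share. Each was lower in all 4 mice by similar amounts. Other listed members, such as Oas1g and Usp18, were also lower in all 4, without a call when all mice were used. The capitals mark GAAA, any 2 bases and GAAA again, the core of an interferon-stimulated response element, searched on both strands of the 250 bases upstream of the start, with no overlap with the half-site motifs above. All matches lay on the minus strand, in Ifit1 from 104 to 95 and from 85 to 76 bases upstream and in Rsad2 from 120 to 111 bases upstream. The letters are present in 15 of the 24 listed interferon genes with a promoter in the table (62.5%) and in 3.46% of all 27025 genes. Since the list is one of interferon-stimulated genes, this share does not bear on the change over time. Ifit2 was called with all mice too, but neither of its 2 promoters in the table holds them, and these are not shown. The windows are chr19:34640639-34640888 on the plus strand and chr12:26456453-26456702 on the minus strand of GRCm38.p6 (RefSeq).
Ifit1: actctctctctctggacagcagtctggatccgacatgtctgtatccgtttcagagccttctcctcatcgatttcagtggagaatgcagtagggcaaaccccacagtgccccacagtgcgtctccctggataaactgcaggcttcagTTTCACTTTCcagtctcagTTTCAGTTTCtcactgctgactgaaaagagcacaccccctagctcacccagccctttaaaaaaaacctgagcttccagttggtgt
Rsad2: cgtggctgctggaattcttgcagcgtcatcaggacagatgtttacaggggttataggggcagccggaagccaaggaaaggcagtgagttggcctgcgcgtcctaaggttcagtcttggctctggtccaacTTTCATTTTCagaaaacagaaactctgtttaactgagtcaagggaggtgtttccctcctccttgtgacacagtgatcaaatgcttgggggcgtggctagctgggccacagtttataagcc

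**Figure D4:**
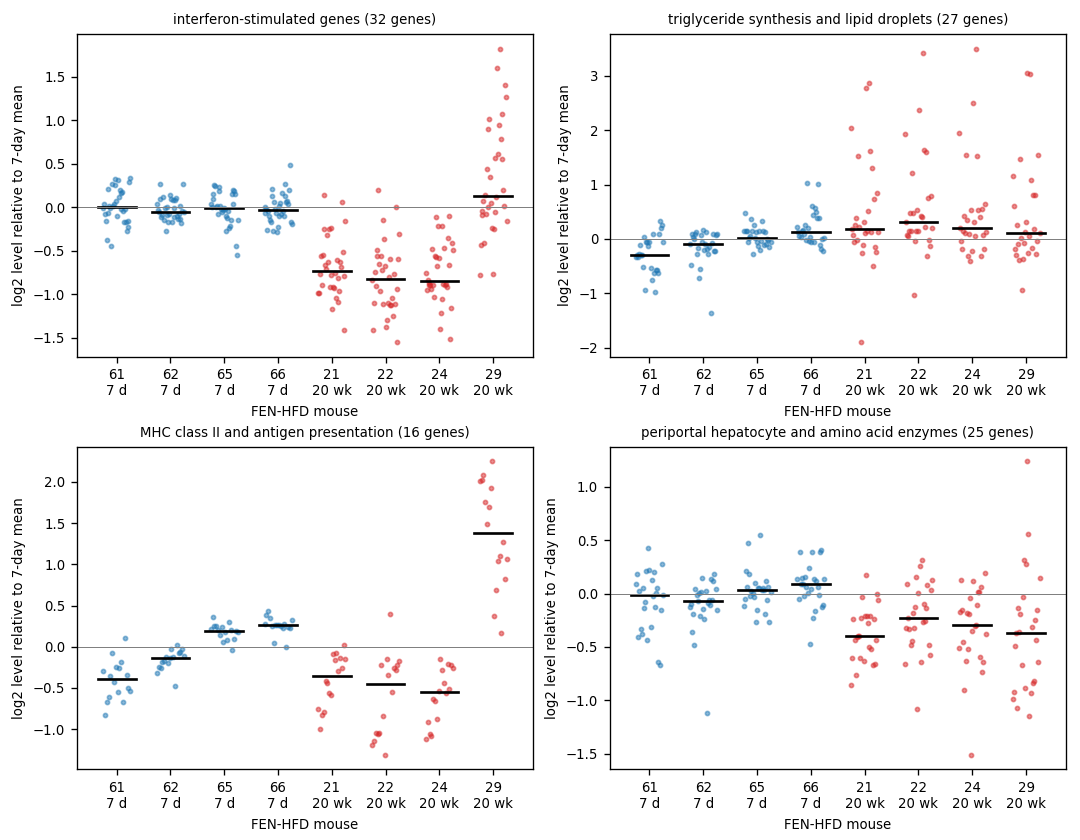
Log2 level of each member of 4 gene lists in each FEN-HFD mouse relative to the mean of the 7-day mice (points), with the list median as a bar. Mice 21, 22 and 24 have interferon medians of -0.74 to -0.85 and mouse 29 has 0.13. Mouse 29 also has the highest median of the MHC class II list at 1.38, and all 4 of the 20-week mice have periportal medians below those of the 7-day mice.

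Leukocyte genes moved with mouse 29 in the same way. The summed level of 15 Kupffer cell markers was 1960 CPM in mouse 29, 969 to 1130 CPM in the other 20-week mice and 1120 to 1320 CPM at 7 days. The 12 B and plasma cell markers summed to 62.4 CPM in mouse 29, 8.55 to 15.2 CPM in the others and 15.1 to 17.8 CPM at 7 days, and the 17 T and NK cell markers to 34.4, 6.95 to 11.7 and 15.7 to 22.1 CPM. None of the 11 B and plasma cell markers tested was called by edgeR with all mice (1 higher at an unadjusted p under 0.05 and by DESeq2, 1 lower by limma-voom), and without mouse 29 Fcrla and Cd22 were lower and the list median went from 0.42 to -0.86. None of the 12 T and NK cell markers tested was called by edgeR with all mice or by DESeq2 (1 lower at an unadjusted p under 0.05, 3 lower by limma-voom), and Il2rb and Cxcr6 were lower without mouse 29, where the median went from -0.35 to -0.97. Over all 12949 genes, 781 were higher and 470 lower at an unadjusted p under 0.05. Cd74, the invariant chain of MHC class II, had 69.8, 57.4, 55.9 and 392 CPM against 76.4, 89.6, 122 and 124 CPM. None of 16 MHC class II and antigen presentation genes was called by edgeR with all mice, nor at an unadjusted p under 0.05 or by DESeq2, 1 was lower by limma-voom, and 3 were lower without mouse 29, Cd74 among them (log2 -0.76; edgeR adjusted p = 0.0412), with the list median going from 0.23 to -0.61. Whether these cells, or the ribosomal RNA in this library, had a part in the interferon values was not tested. Marco, a scavenger receptor of macrophages, was the only Kupffer cell marker of 15 called, with 30.7, 50.0, 40.2 and 111 CPM against 4.33, 11.3, 11.4 and 11.7 CPM (log2 2.58 ± 0.47 SE; edgeR adjusted p = 0.044). Marco was higher without mouse 29 too (log2 2.06, edgeR adjusted p = 0.0288), and its call was lost without 22, 24, 61, 62, 65 or 66 (up to 0.12). The other markers did not share this rise. Of the 15, 9 had positive and 6 negative log2 fold changes, with a list median of 0.084, and of -0.28 without mouse 29. Ccl9, a macrophage chemokine, was lower at 17.1, 17.8, 17.0 and 31.8 CPM against 52.9, 39.9, 56.5 and 44.8 CPM (log2 -1.23 ± 0.21 SE; edgeR adjusted p = 0.0194), and mouse 29 was the highest of its group. Its call was lost without 21, 22, 24, 61 or 65 (up to 0.0827).

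Cfd (adipsin), a complement protease best known from fat cells, was 33.8-fold higher at 20 weeks. It had 77.7, 52.4, 53.1 and 139 CPM against 0.413, 1.53, 2.79 and 4.97 CPM (log2 5.08 ± 0.66 SE; edgeR adjusted p = 0.0117; 0.0226 without mouse 29). The defining fat cell genes were at or near 0 in all 8 livers, with at most 3 counts of Adipoq and at most 1 count each of Lep, Plin1 and Retn in any library. Genes without a list that were named by their size of change include Acnat2, an acyltransferase of peroxisomes, at 6.09 to 22.1 CPM against 2.02 to 3.21 CPM (edgeR adjusted p = 0.00657), Clstn3, a calsyntenin, at 20.3 to 34.4 CPM against 3.20 to 8.21 CPM (edgeR adjusted p = 0.0025), and Tpm2, a tropomyosin, at 12.8 to 17.0 CPM against 3.20 to 4.73 CPM (edgeR adjusted p = 0.000284; 0.257 in the fit of all 16 libraries). Serpine2, a protease inhibitor, had 19.4, 26.1, 26.7 and 6.09 CPM against 3.06 to 4.62 CPM (edgeR adjusted p = 0.023), with mouse 29 the lowest of its group, and was called otherwise only without mouse 29 (up to 0.101).

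The cell cycle inhibitor Cdkn1a (p21) was the only one called of 42 cell cycle and DNA replication genes, with 1.40, 2.31, 2.94 and 2.60 CPM against 0.193, 0.690, 0.594 and 0.508 CPM (log2 2.21 ± 0.37 SE; edgeR adjusted p = 0.0194; up to 0.0653 and lost without mouse 22, 24, 65 or 66). Eda2r, a receptor of the tumour necrosis factor family picked after its values had been seen, had 7.27, 8.63, 8.999 and 4.19 CPM against 1.24, 1.31, 1.34 and 1.49 CPM (log2 2.46 ± 0.23 SE; edgeR adjusted p = 0.000517) and was called with each mouse left out. Lgals1 (galectin-1), picked in the same way, had 28.9, 28.1, 30.2 and 30.1 CPM against 9.68, 7.56, 9.20 and 11.5 CPM (log2 1.63 ± 0.12 SE; edgeR adjusted p = 0.000176). Of 29 collagen and matrix genes none was lower (3 without mouse 29) and 1 was higher, the transcriptional coactivator Wwtr1 (TAZ) at 34.3 to 47.5 CPM against 24.5 to 29.8 CPM (log2 0.57 ± 0.11 SE; edgeR adjusted p = 0.0415; called otherwise only without mouse 29, and up to 0.155). No stellate cell marker of 18 was called by edgeR or DESeq2, while limma-voom called 1 higher, as did an unadjusted edgeR p below 0.05. At that unadjusted level 781 of all 12949 genes were higher.

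The same durations without the drug gave more calls. Under the HFD alone, 634 of 13255 genes (4.78%) were higher and 362 (2.73%) lower at 20 weeks, 7.51% in all, by the same test, in libraries that the FEN-HFD comparison does not use. Of the 153 genes, 148 were tested there, 139 had the same direction, 89 were called in it and none was called in the other. Those 89 are 9.18% of the 969 genes called under the HFD that were tested under FEN-HFD. Of the same 969 genes, 869 (89.7%) had the same direction under FEN-HFD, most of them without a call. The size was larger under the HFD for 83 of the 148. One HFD library at 20 weeks, that of mouse 45, held 5481 counts of Ckm and 6791 of Acta1, both genes of skeletal muscle, against at most 16 and 23 in any FEN-HFD library. It also held 79 counts of Adipoq and 61 of Plin1, both fat cell genes, against at most 3 and 1. Tpm2 had 126 CPM in mouse 45 and 14.8 to 26.2 CPM in the other 3 HFD livers at 20 weeks, while Cfd had 9.50 CPM against 6.30 to 25.0 and Fabp4 23.9 CPM against 10.2 to 21.9. The part of these tissues in the HFD values was not tested.

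**Figure D5:**
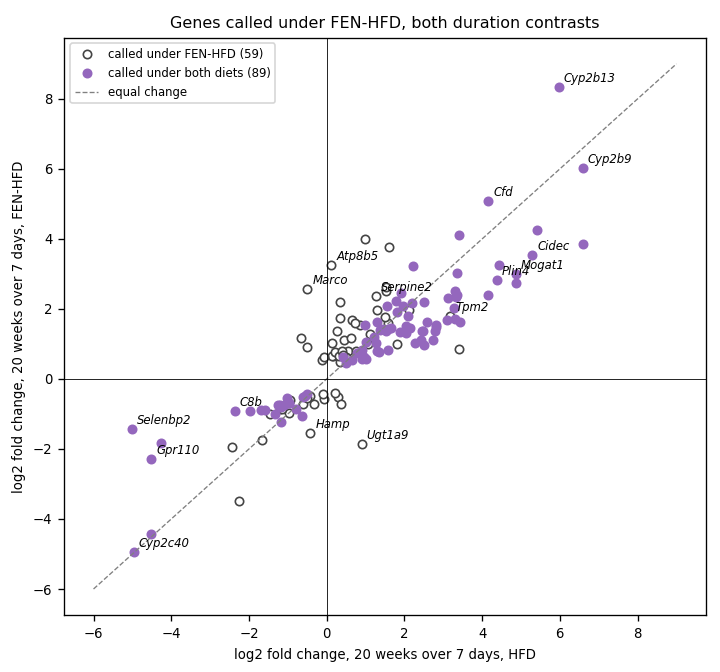
Log2 fold change of 20 weeks over 7 days under FEN-HFD (vertical axis) and under HFD (horizontal axis) for the 148 genes called under FEN-HFD and tested in both. Filled points are the 89 genes called under both diets and the dashed line marks equal change. Cidec, Plin4 and Mogat1 lie below the line, and Selenbp2 and Gpr110 fell further under the HFD.

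The difference between the 2 changes over time was tested gene by gene in all 16 livers. For the lipid genes the estimates were below 0, a smaller change with the drug, but none of those given here passed by edgeR with all mice. The log2 change under FEN-HFD minus that under HFD was -1.08 for Crat (95% interval -1.55 to -0.62; edgeR adjusted p = 0.0926), -1.11 for Cd36 (-1.73 to -0.50; adjusted p = 0.209), -1.55 for Plin4 (-2.45 to -0.66; adjusted p = 0.248) and -1.75 for Cidec (-3.37 to -0.13; adjusted p = 0.54). The intervals are those of single genes, before adjustment. DESeq2 called the difference for Crat, Cd36 and Plin4 (adjusted p = 0.00192, 0.0257 and 0.0199) and limma-voom for Crat and Cd36 (adjusted p = 0.00435 and 0.0476), and edgeR called Crat without mouse 144 (adjusted p = 0.0281). At 20 weeks Crat had 40.8 ± 4.54 CPM (SD, n = 4) with the drug and 105 ± 7.70 CPM (SD, n = 4) without it, and at 7 days 15.8 ± 2.80 and 19.3 ± 5.15 CPM. For Cyp2b9 the difference was -0.57 (-2.56 to 1.43; adjusted p = 0.897) and for Serpina7 -0.33 (-1.17 to 0.50; adjusted p = 0.848), intervals that hold 0 and leave room for sizeable differences.

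Of 13387 genes tested, 1 (0.00747%) had a higher and 3 (0.0224%) a lower change over time with the drug, together 0.0299%, and all 4 were called without mouse 29 too. Abcc3, a transporter of bile acids and conjugates, had 179 ± 16.1 CPM at 20 weeks and 144 ± 26.1 CPM at 7 days under FEN-HFD (SD, n = 4), and 359 ± 71.6 and 116 ± 6.08 CPM under the HFD. The change was 1.32 lower on the log2 scale with the drug (-1.32 ± 0.20 SE; edgeR adjusted p = 0.0197). Cyp46a1, the cholesterol 24-hydroxylase, had 1.44, 1.16, 1.16 and 0.998 CPM at 20 weeks and 0.831 to 1.09 CPM at 7 days with the drug, while under the HFD it had 3.28 to 6.01 and 0.641 to 0.872 CPM (difference -2.24 ± 0.31 SE; edgeR adjusted p = 0.0119). Nnt, the gene of the mitochondrial transhydrogenase, had 46.1 ± 3.66 and 51.4 ± 0.495 CPM with the drug and 84.8 ± 4.67 and 59.7 ± 2.95 CPM without it (difference -0.67 ± 0.10 SE; edgeR adjusted p = 0.0197). These are counts of RNA, and whether mice of this strain make a working enzyme from it was not tested. Atp8b5, a lipid flippase, had the only difference that was higher with the drug, with 2.302, 1.979, 2.502 and 1.198 CPM at 20 weeks and 0.276, 0.218, 0.208 and 0.117 CPM at 7 days. The HFD livers had 0.437 to 0.841 and 0.414 to 0.637 CPM (difference 3.13 ± 0.43 SE; edgeR adjusted p = 0.0119). Cyp46a1 and Atp8b5 lost their calls without mouse 22 or 65, Abcc3 without 21, 22, 24, 25, 65, 66 or 143 and Nnt without 21, 22, 25, 62, 65, 66, 142, 143 or 144 (edgeR adjusted p of up to 0.0543 for the first pair and 0.0841 for the second).

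Without mouse 29 the difference was higher for 6 genes and lower for 5, Selenbp2 and the urinary protein gene Mup9 among the 6. Selenbp2 was lower at 20 weeks on both diets, at 1134 ± 279 against 3065 ± 597 CPM with the drug and 58.1 ± 36.2 against 1878 ± 707 CPM without it (SD, n = 4), and the difference was 3.57 ± 0.58 (SE; edgeR adjusted p = 0.0575; 0.0459 without mouse 29, 0.025 without 143 and 0.0119 without 45). DESeq2 and limma-voom called it with all mice (adjusted p = 1.97e-06 and 0.0163). Mup9 had 24.1, 27.8, 29.7 and 4.79 CPM at 20 weeks and 3.25, 3.63, 5.73 and 3.52 CPM at 7 days with the drug, with mouse 29 within the range of the 7-day mice. Under the HFD it did not exceed 1.92 CPM at either time (difference 4.35 ± 0.86 SE; edgeR adjusted p = 0.096; 0.0137 without mouse 29), and DESeq2 called it with all mice (adjusted p = 0.000416). Major urinary protein genes are close copies that may share reads.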

How the data were processed

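Liver RNA-seq was analysed in 8 FEN-HFD mice, 4 per time, with 8 HFD mice beside them. The authors removed ribosomal RNA, aligned reads with STAR 2.0 and, per the labels, used DESeq2 1.6. The deposited values are raw counts per gene symbol, and the counting program, annotation and strand setting are not given in the sources used here. The labels and the study's methods name different library kits. Members, 44 gene lists (829 symbols, 817 found, 14 by a synonym) and alternatives were chosen with earlier results of these data known. Genes passing filterByExpr were tested with edgeR 4.0.16 (TMM, robust quasi-likelihood, Benjamini-Hochberg over all genes, threshold 0.05) in R 4.3.3, and scripts were tested on simulated data. Named genes are up to 12 per direction by fold change (mean of at least 5 CPM, no overlap), the 4 members per list with the smallest p, genes the paper names and genes of the difference test. Acot2, Fitm1, Cyp2c69, C8b, Eda2r, Lgals1, Cd22, Cyp46a1 and Atp8b5 lie outside this rule and were picked after their values had been seen. Alternatives were DESeq2 1.42.0, limma-voom 3.58.1 with quality weights, other factors and filters, Rn45s and Lars2 removed, a change over 1.5-fold, 1 fit for all 16 libraries and each mouse left out. The 4 mice per group are separate animals. Positions are those of GRCm38.p6.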

Additional observations from a re-analysis of the deposited data

Results flagged for a closer look

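Of 142 sets of 4 FEN-HFD livers checked for a sample far from the others (Dixon's ratio at the 95% level), 14 were picked out, 10 of them for mouse 29. The usual rate of about 1 in 20 does not apply here. The sets share the same livers, and their genes were chosen with earlier results of these data known. At 20 weeks mouse 29 was far above the rest of its group for Rn45s (53.1% of counts), Lars2 (4.36%), Cd74 (392 CPM), Ccl9 (31.8 CPM), Usp18 (15.8 CPM) and Apom (207 CPM), for the median relative level of the interferon-stimulated genes (0.129 on the log2 scale) and for that of the MHC class II genes (1.38), and far below it for Mogat1 (1.30 CPM) and Lipc (126 CPM). At 7 days mouse 61 was lowest for Marco (4.33 CPM) and highest for Lars2 (0.00846% of counts), and mouse 65 was highest for Cyp26a1 (261 CPM) and Mup9 (5.73 CPM).

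The change over time differed between the diets, by the test of the difference itself in all 16 livers, for Abcc3 (-1.32 on the log2 scale, FEN-HFD minus HFD), Cyp46a1 (-2.24), Nnt (-0.67) and Atp8b5 (3.13), with edgeR adjusted p of 0.0197, 0.0119, 0.0197 and 0.0119.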

How the results depend on the processing

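No paired analysis was possible because no mouse number is shared between the groups. For the change over time under FEN-HFD, counts of higher and lower genes were 256 and 148 by DESeq2, 502 and 392 by limma-voom with quality weights, and 36 and 6 in the test for a change over 1.5-fold. Of the 153 calls, DESeq2 kept 153, limma-voom 150, upper-quartile factors 144, a filter of 1 count in any library 140, one of 10 counts in every library 112, the fit of all 16 libraries 100 and the 1.5-fold test 42. With 1 mouse left out the counts ran from 48 (without mouse 21) to 269 (without mouse 29) higher and from 9 to 217 lower by the same 2 mice, the higher count falling by over 1.5 times without any mouse but 22 or 29 and the lower count without 21, 22, 24, 62 or 65, and the share of higher genes, 71.9% with all mice, was 55.3% without mouse 29 and 56.2% by limma-voom. With mouse 29 out, Cd74 turned from 0.47 to -0.76 on the log2 scale, and its highest value was 0.74 without mouse 24. Under the HFD, DESeq2 called 1065 and 699 genes and the 1.5-fold test 93 and 26, with 340 (without mouse 25) to 598 higher and 128 to 380 lower when 1 mouse was left out, and falls past 1.5 times also without 28, 142 or 144 (396, 349 and 418 higher) and, for the lower count, also without 33 or 45 (219 and 240). For the difference the counts were 49 higher and 66 lower by DESeq2, 32 and 41 by limma-voom, upper-quartile factors 3 and 8, removal of Rn45s and Lars2 2 higher, and the 1.5-fold test (edgeR) 0 and 0, with 114 and 167 at an unadjusted p under 0.05. With 1 mouse left out it had 0 to 6 higher and 0 to 9 lower, the 0 coming without mouse 22 or 65 (579 and 590, and 432 and 510, at an unadjusted p under 0.05). The cause of these shifts was not tested. RLE factors and both other filters kept every count of the FEN-HFD comparison within 1.5 times. In mouse 29, 8357336 counts limit the low genes.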

Other observations

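Nr4a1, an orphan nuclear receptor, was the only one called of 13 immediate early genes, with 1.37, 1.75, 1.25 and 1.80 CPM at 20 weeks and 0.551, 0.545, 0.356 and 0.665 CPM at 7 days (log2 1.53 ± 0.26 SE; edgeR adjusted p = 0.0211). Ptges, a prostaglandin E synthase, had 1.94, 2.46, 1.35 and 1.70 CPM against 0.607, 0.690, 0.683 and 0.508 CPM (log2 1.59 ± 0.25 SE; edgeR adjusted p = 0.014). In neither gene did the times overlap. Each call was lost without mouse 21, 22, 61 or 65, and that of Nr4a1 also without 62 and that of Ptges without 66 (edgeR adjusted p of up to 0.0823 and 0.0698). Neither was called in the fit of all 16 libraries (edgeR adjusted p = 0.0512 and 0.0583).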
